A study of Mus musculus with 6 samples.

Results

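Ccdc38, Chrna2, Crybb3, Dnah11, Bpifa1 and 2210407C18Rik are 6 genes whose probe sets gave low signals in wild-type (WT) liver and high signals in liver of LIGHT transgenic mice (LIGHT Tg). The members were chosen by that contrast, their MAS5 signals on the 6 arrays, so the difference between the genotypes is what chose them and is given here as a description with no test. All probe sets that the array annotation assigns to these symbols alone were taken, which gave 7 of 45037 non-control probe sets and 6 of the 18193 genes that have a probe set of their own. Ccdc38 had 2 probe sets and each of the other 5 genes had 1. RNA of whole liver was measured on 1 Affymetrix array per sample. The 3 LIGHT Tg samples (titled Tg77, Tg34 and Tg35) and the 3 WT samples (WT78, WT30 and WT31) came from mice aged 4 to 8 weeks after 2 weeks on the high-fat diet TD88137. B6 stands in the source names of WT samples alone, while the description of every sample, LIGHT Tg included, reads wild-type B6, so the strain of the LIGHT Tg mice is not settled, and genetic background and transgene cannot be told apart.

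LIGHT, the product of Tnfsf14, is a tumour necrosis factor family ligand that signals through the lymphotoxin beta receptor and HVEM. No label names the promoter that drives the transgene or the cells that carry it. Genotypes were taken from titles and source names, since the descriptions do not tell the groups apart. The brighter probe set of Tnfsf14 itself had signals of 55.7, 19.3 and 26.7 in Tg77, Tg34 and Tg35, and of 7.70, 11.8 and 7.43 in WT78, WT30 and WT31. Its dimmer probe set had 2.30, 3.10 and 5.60 in the LIGHT Tg samples and 4.25, 3.75 and 7.83 in the WT samples, a log2 difference of the opposite sign at -0.55. No label says whether the transgene's RNA can bind these probes.

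The genes other than 2210407C18Rik are known from tissues other than liver, and no single tissue unites them. Ccdc38 encodes a coiled-coil protein of the sperm flagellum. Dnah11 encodes a heavy chain of axonemal dynein, the motor of motile cilia, and is known in the mouse for setting left-right asymmetry in the embryo. Chrna2 encodes a subunit of nicotinic acetylcholine receptors, ligand-gated cation channels of neurons. Crybb3 encodes a beta crystallin, one of the structural proteins that make the lens transparent. Bpifa1 encodes a secreted protein of the BPI fold family made by the epithelium of the upper airways. 2210407C18Rik is an annotated protein-coding gene for which no role is given here. In the RefSeq annotation of GRCm38.p6 the 6 genes lie on 6 different chromosomes.

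Promoter windows are shown because the 6 genes were higher in the same samples and so raise the question of shared sequence. RefSeq windows of 300 bases (250 before and 50 after the annotated start, build GRCm38.p6) were matched for 5 of the 6 genes, with 2 windows for Ccdc38, and not for Chrna2. Both Bpifa1 (chr2:154142630-154142929, plus strand) and 2210407C18Rik (chr11:58613443-58613742, minus strand) held the letters TATAAA on the strand of the gene, starting at position -29 in Bpifa1 and at position -27 in 2210407C18Rik, counted from the annotated start. Crybb3 (chr5:113081535-113081834, minus strand) held 2 overlapping matches to the kappaB-type pattern (GGG, any 5 bases, CC) on the strand of the gene, starting at positions -134 and -133, of which the second also matched on the other strand. The windows are printed 5′ to 3′ on the strand of the gene, and capitals mark TATAAA, the kappaB-type pattern and the letters CCAAT on either strand.
Bpifa1: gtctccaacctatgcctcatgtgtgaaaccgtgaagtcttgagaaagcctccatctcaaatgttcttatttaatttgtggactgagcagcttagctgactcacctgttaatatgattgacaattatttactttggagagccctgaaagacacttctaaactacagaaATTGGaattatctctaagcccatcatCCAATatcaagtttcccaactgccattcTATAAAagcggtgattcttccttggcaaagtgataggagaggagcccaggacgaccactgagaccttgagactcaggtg
2210407C18Rik: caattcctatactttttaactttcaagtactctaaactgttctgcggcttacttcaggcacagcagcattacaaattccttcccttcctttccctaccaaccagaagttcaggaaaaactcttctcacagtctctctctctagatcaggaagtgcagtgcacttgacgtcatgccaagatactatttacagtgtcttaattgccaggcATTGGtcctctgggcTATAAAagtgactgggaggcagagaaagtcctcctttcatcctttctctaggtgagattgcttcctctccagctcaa
Crybb3: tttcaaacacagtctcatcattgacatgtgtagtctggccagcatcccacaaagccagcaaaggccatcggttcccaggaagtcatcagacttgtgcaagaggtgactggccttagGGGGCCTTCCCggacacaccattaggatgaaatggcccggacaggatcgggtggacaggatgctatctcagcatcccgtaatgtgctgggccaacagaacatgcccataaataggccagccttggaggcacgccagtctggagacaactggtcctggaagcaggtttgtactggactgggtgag

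Neither kind of match is rare. Of 32851 RefSeq promoter windows of this length, 13.6% held TATAAA on either strand and 8.32% on the strand of the gene. The kappaB-type pattern was in 50.8% of windows and CCAAT in 37.4%. CCAAT or its complement was found in the windows of Bpifa1 and 2210407C18Rik. The 2 windows of Ccdc38 and that of Dnah11 held none of the patterns searched, which were these and GTTGCC (an RFX-type site, in 12.5% of windows), TGCTGAC (a Maf-type site, 4.67%), CAAAGTCCA (HNF4-type, 0.475%) and the HNF1-type pattern (GTTAAT, any 1 base, ATTAAC, 0.00913%), each on both strands. Windows of Bpifa1 and 2210407C18Rik had a GC content of 42.3% and 44.0% with 3 and 2 CpG dinucleotides. The other windows had more, at 54.3% and 6 CpG in Crybb3, 49.0% and 7 in Dnah11, and 57.0% and 14 or 46.3% and 10 in the 2 windows of Ccdc38. The median over all windows was 52.7% and 7 CpG, so the matched genes lay on both sides of it. A match is a description of letters and shows no binding.

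The values are the authors' MAS5 signals, 1 per probe set on a linear scale, scaled per array before deposit. Trimmed mean signals lay between 488.8 and 503.2 on the 6 arrays, and correlations between arrays lay between 0.875 and 0.956 across probe sets. The arrays titled 77 and 78, 1 of each genotype, stood apart from the 4 titled 30 to 35. The X-inactivation transcript Xist had signals of 407 and 444 on Tg77 and WT78 against 7993 to 9714 on the other 4 at its brightest probe set, and the Y-linked Eif2s3y had 1272 and 1037 against at most 2.82, a male pattern in that pair and a female pattern in the others. Values are therefore given within each of these sets as well. No label says what the title number stands for.

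Ccdc38 had the largest difference of the 6 genes, and its 2 probe sets moved together. At probe set 1441965_at the signals were 730, 1908 and 2092 in Tg77, Tg34 and Tg35, and 17.9, 41.7 and 35.9 in WT78, WT30 and WT31. At 1438569_at they were 551, 1223 and 1018 in the LIGHT Tg samples and 28.9, 31.6 and 35.6 in the WT samples. At both probe sets every LIGHT Tg signal lay far above every WT signal, and Tg77 was the lowest of the LIGHT Tg samples. The log2 means were 10.48 ± 0.84 in LIGHT Tg and 4.90 ± 0.65 in WT at the first (SD, n = 3 each), a difference of 5.58, and the difference was 4.79 at the second, where the LIGHT Tg mean was 9.78 ± 0.60 and the WT signals had an SD of 0.15. Over the 6 arrays the log2 signals of the probe sets had a Pearson correlation of 0.993, a description that rests on the gap between genotypes. Within genotypes they ranked samples differently, with Tg35 above Tg34 at the first and below it at the second.

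**Figure D1:**
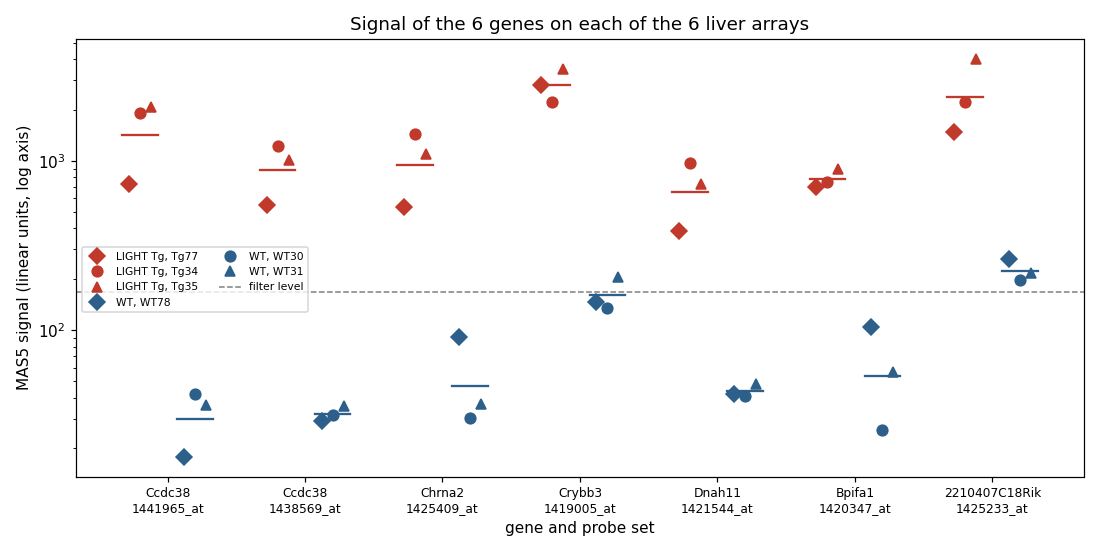
MAS5 signal (log axis) of the 7 probe sets on each array, with LIGHT Tg samples in red left of WT samples in blue, horizontal bars at the mean of the log2 signals and a dashed line at the filter level of 167.4. The lowest LIGHT Tg signal of any probe set is 386 (Dnah11 in Tg77) and the highest WT signal is 262 (2210407C18Rik in WT78).

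Dnah11, the ciliary dynein heavy chain, had signals of 386, 976 and 733 in Tg77, Tg34 and Tg35 against 42.2, 41.1 and 47.9 in WT78, WT30 and WT31. The WT signals lay within a narrow range, the highest 1.16 times the lowest, while the LIGHT Tg signals spanned 2.53 times. The log2 means were 9.35 ± 0.69 in LIGHT Tg and 5.45 ± 0.12 in WT (SD, n = 3 each), a difference of 3.90. The order of the LIGHT Tg samples was that of Ccdc38 at 1438569_at, with Tg34 highest and Tg77 lowest.

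Chrna2, the nicotinic receptor subunit, had signals of 537, 1442 and 1100 in Tg77, Tg34 and Tg35 against 91.5, 30.1 and 36.7 in WT78, WT30 and WT31. Here the pair of arrays titled 77 and 78 held both the lowest LIGHT Tg signal and the highest WT signal. The lowest LIGHT Tg signal was 5.88 times the highest WT signal. The log2 means were 9.89 ± 0.74 in LIGHT Tg and 5.54 ± 0.85 in WT (SD, n = 3 each), a difference of 4.35.

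Crybb3, the lens crystallin, had signals of 2797, 2232 and 3510 in Tg77, Tg34 and Tg35 against 147, 136 and 207 in WT78, WT30 and WT31. Unlike the genes above, Tg77 was not the lowest LIGHT Tg sample. The log2 means were 11.45 ± 0.33 in LIGHT Tg and 7.33 ± 0.32 in WT (SD, n = 3 each), a difference of 4.12. The WT mean lay just below the filter level of 7.387, so Crybb3 was not at the bottom of the scale in WT liver.

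Bpifa1, the airway BPI fold protein, had signals of 702, 755 and 893 in Tg77, Tg34 and Tg35 against 105, 25.8 and 56.7 in WT78, WT30 and WT31. The spread lay in WT, where the highest signal was 4.06 times the lowest, against 1.27 times in LIGHT Tg. The log2 means were 9.61 ± 0.18 in LIGHT Tg and 5.74 ± 1.01 in WT (SD, n = 3 each), a difference of 3.86.

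2210407C18Rik had signals of 1473, 2237 and 4009 in Tg77, Tg34 and Tg35 against 262, 197 and 218 in WT78, WT30 and WT31. Its WT mean of 7.81 lay above the filter level, so its signal was already above the middle of the array in WT liver, and "low in WT" holds for it only beside its LIGHT Tg level. The log2 means were 11.21 ± 0.73 in LIGHT Tg and 7.81 ± 0.21 in WT (SD, n = 3 each), a difference of 3.40, the smallest of the 6 genes.

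In all 7 probe sets the LIGHT Tg and WT signals did not overlap, as the choice of the genes fixes; all 3 LIGHT Tg signals lay above all 3 WT signals in 8.17% of the 22519 probe sets tested and below them in 9.19%. A WT mean below the filter with a difference at least as large as the smallest of the 6 genes' was met by 0.0755%, 6 of the 7 probe sets among them. The other 5 genes had WT means below the filter, which asks for a mean log2 signal of at least 7.387 over the 6 arrays, and passed it through their LIGHT Tg signals. The probe set 1438569_at of Ccdc38 passed it at 7.39 and that of Dnah11 at 7.40. No detection calls were used here, and low signals carry no bound. With 37.5 added to each signal before log2 the differences were 4.42 and 3.73 for the probe sets of Ccdc38, 3.52 for Chrna2, 3.84 for Crybb3, 3.09 for Dnah11 and 3.11 for Bpifa1. In bulk liver a gene used in few cells and a gene used weakly in many cannot be told apart.

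The size of the difference was set out by title-number set as a description; that it is positive in both sets follows from how the genes were chosen. Between Tg77 and WT78 the log2 differences were 5.35 and 4.25 for the probe sets of Ccdc38, 2.55 for Chrna2, 4.25 for Crybb3, 3.19 for Dnah11, 2.74 for Bpifa1 and 2.49 for 2210407C18Rik. In the arrays titled 30 to 35 they were 5.69 and 5.06 for Ccdc38, 5.24 for Chrna2, 4.06 for Crybb3, 4.25 for Dnah11, 4.42 for Bpifa1 and 3.85 for 2210407C18Rik. The difference was smaller in the pair at 6 of the 7 probe sets, Crybb3 being the exception. The gap between the sets, pair minus others, was widest in Chrna2 at -2.69 ± 0.429 (SE), followed by Bpifa1 at -1.68 ± 0.683 and 2210407C18Rik at -1.36 ± 0.489. It compares sizes of the effect that chose the genes and so supports nothing about them: in limma's interaction term 0 of the 7 probe sets and 0.0666% of all probe sets passed a false discovery rate (FDR) of 5%. The pair holds 1 array of each genotype.

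**Figure D2:**
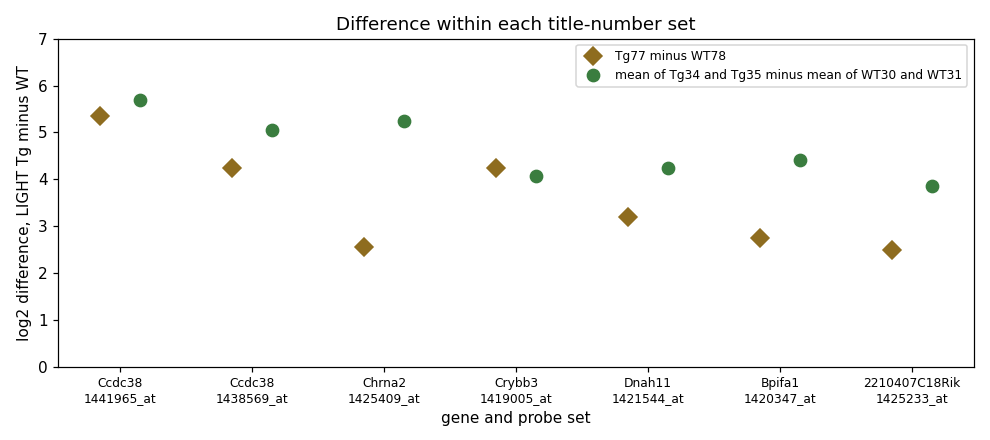
Log2 difference, LIGHT Tg minus WT, of the 7 probe sets in the pair Tg77 and WT78 (diamonds) and in the arrays titled 30 to 35 (circles, mean of 2 minus mean of 2). All values are above 2.4 and the widest gap is that of Chrna2, at 2.55 for Tg77 and WT78 against 5.24 for the arrays titled 30 to 35.

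The sets themselves were compared with genotype in the model, pair minus others. The same signals chose the genes, and 6 of the 7 probe sets passed the filter through their LIGHT Tg signals. Nothing is therefore read from their calls, singly or as a count, and the values are a description. The count was 1 at 5% FDR beside 27.4% of all probe sets. That probe set, 1441965_at of Ccdc38, was lower in the pair, with -1.28 ± 0.210 on the log2 scale (adjusted p = 0.00694 in limma). The other probe set of Ccdc38 had the same sign at a smaller size, -0.62 ± 0.273 (adjusted p = 0.132 in limma). The remaining genes had differences between -0.60 (Dnah11) and 0.61 (Bpifa1) that did not pass.

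Relatives of the genes were examined next, 98 genes with a probe set of their own in 6 lists. Most lay at low signals: 32 had a mean above the filter, and none of these 32 passed 5% FDR in limma, against 1.17% of all probe sets called (264 of 22519, 0.715% higher and 0.457% lower in LIGHT Tg). None of the 32 had an unadjusted p below 0.05, against 2473 of the 22519 probe sets. The median log2 difference of all probe sets tested was -0.01. The lists were drawn up with earlier results of these data known and get no test of their own.

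Among 17 lens genes with a probe set, 15 were below the filter. Crybb2, the crystallin gene adjacent to Crybb3, had signals of 39.0, 70.8 and 44.9 in Tg77, Tg34 and Tg35 against 101, 205 and 127 in WT78, WT30 and WT31, lower in LIGHT Tg where Crybb3 was higher, though below the filter and not tested. The alpha crystallin genes were below the filter, with 60.5, 29.1 and 29.0 in LIGHT Tg against 35.6, 27.5 and 27.0 in WT for Cryaa. Cryab had 81.8, 126 and 85.5 against 114, 101 and 119. The beta crystallin gene Cryba1 did not exceed 7.60 in LIGHT Tg or 7.95 in WT. The lens fibre genes tested, Bfsp2 (a filament protein of the lens) and Lim2 (a lens membrane protein), had log2 differences of -0.78 ± 0.613 (SE; adjusted p = 0.769) and 0.27 ± 0.255 (adjusted p = 0.830). Crybb1, another beta crystallin gene, was below the filter at 174, 209 and 160 in LIGHT Tg against 113, 102 and 138 in WT, groups that did not overlap, with a log2 difference of 0.63. Like Crybb2, other lens genes below the filter had groups that did not overlap with the opposite sign. These were Mip (-2.69), Crygn (-1.99), Cryba4 (-1.20) and Crygs (-0.78). Their signals were low, at most 11.2 in LIGHT Tg and 57.3 in WT for Mip, 11.1 and 105 for Crygn, 9.10 and 43.1 for Cryba4, and 62.2 and 96.4 for Crygs. Among probe sets past the filter, all 3 LIGHT Tg signals lay below all 3 WT signals in 9.19%. No such share was taken below the filter, so nothing is read from these gaps. With 2 of 17 lens genes tested, most of the list has no test.

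Of 14 other nicotinic receptor subunit genes 4 were tested, with a median log2 difference of 0.10. Chrna4, a main neuronal subunit and the brightest of them, had 0.67 ± 0.397 (SE; adjusted p = 0.645), Chrna1, the muscle subunit, -0.24 ± 0.490, and Chrnb2, the neuronal partner of alpha subunits, 0.08 ± 0.211. Chrnb1, the beta subunit of the muscle receptor, was below the filter at 229, 284 and 187 in Tg77, Tg34 and Tg35 against 111, 22.3 and 95.5 in WT78, WT30 and WT31, groups that did not overlap (adjusted p = 0.434 in limma with no filter).

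Of 14 other axonemal dynein genes 3 were tested, with log2 differences of -0.33 ± 0.311 (SE) for the heavy chain gene Dnah5, -0.38 ± 0.370 for the light chain gene Dnal1 and -0.06 ± 0.197 for Dnal4. The intermediate chain gene Dnaic1, dim in WT like Dnah11, had signals of 214, 573 and 627 in Tg77, Tg34 and Tg35 against 32.5, 185 and 46.3 in WT78, WT30 and WT31. Its groups did not overlap, its log2 difference was 2.70, and it lay below the filter (adjusted p = 0.249 in limma with no filter). The other intermediate chain gene Dnaic2 had the opposite sign at lower signals, with 32.7, 29.2 and 32.1 against 58.0, 125 and 218. Of 25 motile cilia genes 5 were tested, all with positive differences between 0.11 and 0.62, and none passed; Foxj1, the transcription factor of motile ciliogenesis, was below the filter at 50.4, 128 and 83.1 in LIGHT Tg against 42.6, 120 and 86.0 in WT. Hydin, a protein of the ciliary central pair, had 0.62 ± 0.395 (SE; adjusted p = 0.680). Of 17 intraflagellar transport genes, which build cilia and flagella, 13 were tested with a median of 0.02, among them Ift88 at -0.54 ± 0.357 and Ift20, the brightest, at 0.16 ± 0.328.

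Of 11 other BPI fold genes 5 were tested, with a median of -0.11. Lbp, the lipopolysaccharide binding protein made by hepatocytes, was the brightest, at 0.45 ± 0.202 (SE; adjusted p = 0.484), and Pltp, the phospholipid transfer protein, had 0.12 ± 0.226. Bpifa3, next to Bpifa1 in the gene cluster, was below the filter with signals of 496, 294 and 342 in Tg77, Tg34 and Tg35 against 49.0, 42.5 and 138 in WT78, WT30 and WT31. Its groups did not overlap and its log2 difference was 2.48 (adjusted p = 0.122 in limma with no filter). Other genes of the cluster did not pass the test or were not tested. Bpifa5, the next measured gene on the other side, had -0.71 ± 0.411 (adjusted p = 0.636), Bpifb3 -0.43 ± 0.230 (adjusted p = 0.594) and Bpifa2 -0.11 ± 0.390 (adjusted p = 0.978). The probe sets of Bpifb9b, both below the filter, disagreed: the dimmer had 104, 53.7 and 23.7 in LIGHT Tg against 15.0, 6.63 and 12.7 in WT with no overlap, and the brighter 76.1, 14.0 and 84.1 against 76.9, 113 and 68.9.

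**Figure D3:**
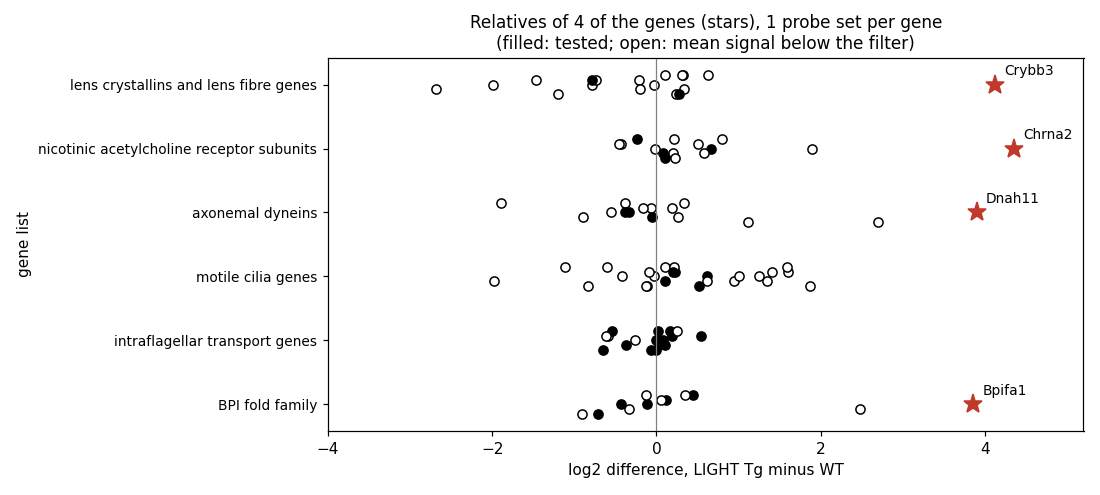
Log2 difference, LIGHT Tg minus WT, of the relatives of Crybb3, Chrna2, Dnah11 and Bpifa1 in 6 lists, 1 probe set per gene (filled circles tested, open circles below the filter), with the 4 genes as red stars. The nearest relatives are Dnaic1 at 2.70 and Bpifa3 at 2.48, both below the filter, while the stars lie between 3.86 and 4.35.

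Genomic neighbours were taken as the 10 nearest measured genes on each side in RefSeq order, whatever their values, which gave 115 genes (15 around Dnah11, near a chromosome end, and 20 around each of the others). Of these 70 were tested, and 2 of the 70, or 2.86%, were higher in LIGHT Tg at 5% FDR and none lower, against 1.17% of all probe sets called. An unadjusted p below 0.05 was found for 7 of the 70, a share close to the 2473 of 22519 over all probe sets. Their median log2 difference was 0.02 against -0.01 over all probe sets tested. At the brightest probe set of each gene the differences of the tested neighbours lay between -1.05 and 1.39. Over all their tested probe sets the highest was 2.51, a second probe set of Grk3.

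Around Ccdc38 the genes on either side did not pass the test. Amdhd1, an enzyme of histidine breakdown on one side, had signals of 2463, 4958 and 4601 in Tg77, Tg34 and Tg35 against 2161, 4695 and 4107 in WT78, WT30 and WT31, a log2 difference of 0.14 ± 0.367 (SE; adjusted p = 0.966). Snrpf, a core protein of spliceosomal particles whose annotated span overlaps that of Ccdc38, had 0.13 ± 0.557 (adjusted p = 0.983). Lta4h, the leukotriene A4 hydrolase and the third gene on the Amdhd1 side, had 3056, 4570 and 4563 in LIGHT Tg against 1488, 1816 and 1665 in WT and rose by 1.27 ± 0.197 (adjusted p = 0.0360 in limma). Its other probe sets had 0.69 (adjusted p = 0.606) and -0.86 (adjusted p = 0.247), so they did not share a direction, and the call was lost when WT30, WT31, WT78, Tg34 or Tg35 was left out.

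Around Crybb3, Grk3 rose, a kinase that phosphorylates G protein-coupled receptors and the next measured gene beyond Crybb2. Its signals were 1055, 1162 and 1154 in Tg77, Tg34 and Tg35 against 369, 415 and 514 in WT78, WT30 and WT31, a log2 difference of 1.39 ± 0.186 (SE; adjusted p = 0.0218 in limma). Its other probe sets pointed the same way, with 2.51 (adjusted p = 0.0485) and 2.22 (adjusted p = 0.276). The call was lost without WT30, WT31, Tg34 or Tg35. On the other side of Crybb3, 2900026A02Rik had -0.27 ± 0.283 (adjusted p = 0.858).

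Near the remaining genes no neighbour passed. Ephx2, the soluble epoxide hydrolase before Chrna2, had -0.52 ± 0.190 (SE; adjusted p = 0.365) and the kinase gene Ptk2b after it -0.65 ± 0.268 (adjusted p = 0.435). Cdca7l, whose span overlaps that of Dnah11, had -0.16 ± 0.242 (adjusted p = 0.923), and Sp4 on the other side was below the filter with 57.4, 187 and 95.5 in LIGHT Tg against 111, 70.3 and 88.6 in WT. Lypd9 before 2210407C18Rik had 0.14 ± 0.248 (adjusted p = 0.935), and the olfactory receptor gene Olfr315 after it was below the filter with 87.2, 117 and 60.8 in LIGHT Tg against 60.1, 18.8 and 14.8 in WT. With the title-number set as a block, 6.47% of all probe sets passed (3.26% higher and 3.21% lower). There Dnmt3b near Bpifa1, a DNA methyltransferase, passed as well at 1.36 (adjusted p = 0.0474 in limma with the block). Without the block Dnmt3b had 1.36 ± 0.372 (SE, adjusted p = 0.191 in limma). Its dimmer probe set had 0.57 and did not pass (adjusted p = 0.194 in limma with the block).

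**Figure D4:**
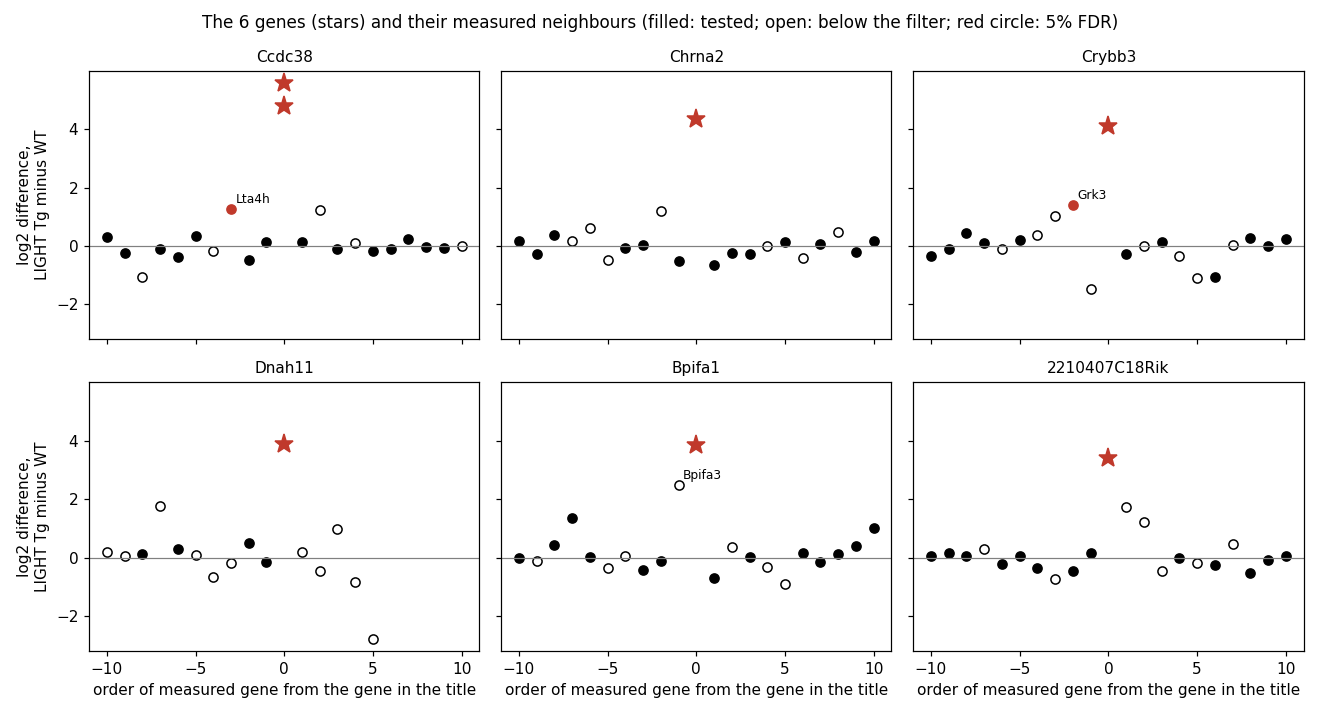
Log2 difference, LIGHT Tg minus WT, of the 6 genes (red stars, one panel each) and of up to 10 measured genes on each side in RefSeq order (filled circles tested, open circles below the filter, red circles past 5% FDR). Each neighbour is shown at its brightest probe set, where tested ones lie between -1.05 and 1.39, and the 2 past the threshold are Lta4h and Grk3.

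Markers of other cell types that a liver sample could hold were measured beside these genes, and their part in the result was not tested. Of 77 markers in 7 lists, hepatocytes included, 32 were tested. At 5% FDR in limma 1 of the 32 passed, against 1.17% of all probe sets. An unadjusted limma p below 0.05 was found for 6 of the 32, against 2473 of the 22519 probe sets. Hepatocyte markers, the check of the labelled tissue, were bright: all 10 were tested, none passed, and their summed signal lay between 166635 and 184338 in LIGHT Tg samples and between 176112 and 185812 in WT samples, with Apoa1 the brightest. Of 13 airway secretory markers 6 were tested and none passed. Their summed signal was 8613 to 10935 in LIGHT Tg and 15727 to 21325 in WT, lower in LIGHT Tg with no overlap, most of it from Cyp2f2, which liver also uses. Cyp2f2 had -0.94 ± 0.165 (SE; adjusted p = 0.0519 in limma, 0.00470 with the block). Scgb1a1, the defining club cell secretoglobin, was below the filter at 21.5, 18.2 and 18.8 in LIGHT Tg against 79.8, 13.9 and 21.2 in WT. Of 16 male germ cell markers 2 were tested and none passed, with sums of 1616 to 1856 in LIGHT Tg and 1456 to 1764 in WT; the protamine Prm1 had 0.37 ± 0.212 (adjusted p = 0.631).

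Of 10 neuronal markers 3 were tested and none passed, with sums of 2312 to 3101 in LIGHT Tg and 1804 to 2190 in WT, groups that did not overlap. Syt1 had 0.56 ± 0.264 (SE, adjusted p = 0.518), Syn1 0.95 ± 0.508 (adjusted p = 0.593) and Rbfox3 -0.08 ± 0.215 (adjusted p = 0.967). The others, Snap25 among them, were below the filter with mixed signs, from -1.43 (Gap43) to 0.88 (Nefm). Of 9 pancreatic acinar markers 3 were tested and none passed, with sums of 1914 to 2123 in LIGHT Tg and 2287 to 2421 in WT, lower in LIGHT Tg with no overlap. The elastase gene Cela1, the brightest of them, was lower at -0.59 ± 0.185 (SE, adjusted p = 0.261 in limma, 0.0304 with the block). Prss2, below the filter, had 52.9, 133 and 109 in Tg77, Tg34 and Tg35 against 464, 247 and 43.3 in WT78, WT30 and WT31. The other tested elastase genes had positive differences, 0.86 ± 0.238 for Cela3b (adjusted p = 0.195) and 0.51 ± 0.340 for Cela2a (adjusted p = 0.703). The lipase-related Pnliprp1 was dim and below the filter, with a log2 difference of 3.33 and groups that did not overlap. Of 12 stomach and intestine markers 6 were tested and none passed, with sums of 10646 to 12908 in LIGHT Tg and 9067 to 12471 in WT. The brightest was Fabp2, the intestinal fatty acid binding protein, at 0.30 ± 0.133 (adjusted p = 0.472). Atp4a had the largest difference, 1.20 ± 0.420 (adjusted p = 0.332), with groups that did not overlap. Gkn2 at -0.99 ± 0.513 and Tff1 at -0.37 ± 0.157 had the opposite sign. Tff3 had 3828 and 2028 in Tg77 and WT78 against at most 483 in the other samples. Of 7 bile duct markers 2 were tested and 1 rose: Prom1, a membrane glycoprotein of duct and progenitor cells, by 4.20 ± 0.483 (adjusted p = 0.0134 in limma), a call lost without Tg34, Tg35 or WT31. The keratin Krt19, a defining duct marker, was below the filter at 201, 134 and 101 in LIGHT Tg against 191, 97.3 and 125 in WT. The bile duct sums were 3102 to 6832 in LIGHT Tg and 1139 to 6427 in WT. Epcam made up most of the sum in WT78 at 5846, and Epcam at 3598 with Prom1 at 2766 most of that in Tg77. Epcam, the other marker tested, had -0.55 ± 1.21 (SE, adjusted p = 0.957 in limma).

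Genes whose log2 signals ran most like each of the 6 over the 6 arrays were named by Pearson correlation, as a description. All correlations were at least 0.994 over 6 arrays, since a gap between genotypes alone gives a high value. Ccdc38 at 1441965_at was nearest to Fads2, a fatty acid desaturase, Ski, a repressor of transforming growth factor beta signalling, and Lifr, the leukaemia inhibitory factor receptor. Chrna2 was nearest to Crip2, Slc41a2 and Lgr4, and Crybb3 to Vnn3, Cep170b and Zfp655. Dnah11 was nearest to Rap1gap2, Rogdi and Ube2j1. Bpifa1 was nearest to Ttll8, Rab17 and Cdk2ap1, and 2210407C18Rik to Lyve1, a receptor of lymphatic and sinusoidal endothelium, Id2, an inhibitor of basic helix-loop-helix factors, and Arsg. The sizes differed widely within these groups, with a log2 difference of 0.15 in Ube2j1 against 3.90 in Dnah11, and of 2.20 in Ttll8 against 3.86 in Bpifa1.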

How the data were processed

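The deposited values are intensities that the authors made with MAS5, per the submitters' processing notes, on a linear scale. Its version and scaling target are not stated in the labels, and detection calls were not used here. Of 45101 probe sets 64 controls were left out. Symbols came from the array annotation (34945 probe sets with 1 symbol, 932 with several, 9160 unnamed here), and RefSeq gene IDs changed 0 of them. A floor of 1 was applied (106 values lay below it) before log2 transformation. Probe sets with a mean log2 of at least 7.387 over the 6 arrays were tested (22519) in limma 3.58.1 (R 4.3.3), lmFit and eBayes with a variance trend, two-sided, with Benjamini-Hochberg adjustment over all of them at 5% FDR, LIGHT Tg minus WT. All adjusted p-values are limma's. Further fits added the title-number set, or the set and its interaction with genotype. The steps were tested on simulated data. The members and lists were chosen with earlier results of these data known. Lists use the brightest probe set per gene; of their entries, 15 of the relatives and 7 of the markers were not matched. Named were all members, the 3 genes of each list with the largest moderated statistic and its brightest gene (of which the most informative are given), flanking neighbours and those called, the 3 nearest in correlation, and non-members with as large a difference. Defining markers and genes below the filter were named after their values were seen. Nothing in the labels says outright that each sample is a separate animal, so p-values reflect only how these samples vary, which may be technical, and the number of arrays limits the precision. Figures were drawn with matplotlib 3.10.9.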

Additional observations from a re-analysis of the deposited data

How the results depend on the processing

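The log2 differences of the 7 probe sets of the 6 genes, whose sign the choice of genes fixes, lay between 3.02 and 6.06 over 86 combinations of probe set and alternative, and 6 of these moved by more than the spread between replicates, 5 of them with the offset before log2 and 1 (Chrna2, 5.24) in the arrays titled 30 to 35 alone, an alternative chosen after seeing the data. The count of probe sets called, 264, was 1992 with array weights, 1457 with the title-number set as a replicate block, 956 in the arrays titled 30 to 35 alone, 148 without the variance trend, and between 43 and 306 with 1 array left out. The pairing of arrays within title-number sets is read from the data and not stated in the labels. The 2 calls among neighbours became 5 with array weights, 1 without the trend (Grk3), 1 with the mean of all probe sets per gene (Grk3), 3 with the block, and between 0 and 2 with 1 array left out. The family lists gave 0 calls under every alternative run. The single call among cell type markers, Prom1, became 4 with array weights, 3 with the block, 2 in the arrays titled 30 to 35 alone, 2 with a common median, 2 with the filter at the 75th percentile, 2 with the mean of all probe sets, and between 0 and 1 with 1 array left out. The single call among the 7 probe sets between title-number sets became 0 with the filter at the 75th percentile, which leaves 2 of them. It stayed that of Ccdc38 without Tg34, Tg35, WT30 or WT31. Leaving out Tg77 or WT78 makes the pair a single array, so no call is read there. Chrna2 then had 1.46 without Tg77 and -1.23 without WT78, pair minus others, so its sign changed with the array left out. The interaction gave 0 calls among the 7 under every alternative run, from which nothing is read; without Tg77 or WT78 the interaction could not be fitted. Where not stated, the cause was not tested.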

Other observations

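Of the 6 genes 5, all but 2210407C18Rik, belong to a larger group defined by signal. A WT mean below the filter together with a log2 difference at least as large as that of 2210407C18Rik was met by 17 of 22519 tested probe sets, or 0.0755%, of which 11 belonged to none of the 6 genes. These 11 hold 7 named genes, given as a description with no test because the difference chose them. Peg3, an imprinted zinc finger gene, had signals of 1264, 1898 and 2007 in Tg77, Tg34 and Tg35 against 25.0, 27.8 and 34.1 in WT78, WT30 and WT31, with log2 differences of 5.66 in the pair and 5.98 in the others. Bmp7, a bone morphogenetic protein, had 763, 689 and 600 in the LIGHT Tg samples against 50.6, 61.9 and 32.2 in the WT samples, and was one of the evenest of these genes across sets, at 3.91 for the pair against 3.85 elsewhere. Sdr16c5, a retinol dehydrogenase, had 1681, 851 and 1056 against 110, 87.8 and 67.2, with Tg77 the highest of the LIGHT Tg samples. Prom1 had 2766, 1890 and 2844 in the LIGHT Tg samples against 60.9, 236 and 167 in the WT samples, and its difference was 5.51 for the pair against 3.55 elsewhere.

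The remaining 3 genes had wider gaps between the sets. Cyp3a16, a P450 gene, had signals of 3031, 7539 and 7341 in Tg77, Tg34 and Tg35 against 6.30, 396 and 864 in WT78, WT30 and WT31, so its log2 difference was 8.91 in the pair and 3.67 in the others. Cux2, a cut homeobox gene, had 1017, 1307 and 876 against 6.25, 109 and 468, a difference of 7.35 for the pair against 2.24 elsewhere. Both are known as female-biased in mouse liver, and the pair showed the male Xist and Eif2s3y pattern; the part of sex in these values was not tested. Clec2h, a C-type lectin gene, went the other way, with 688, 1411 and 1501 against 148, 22.8 and 60.0, its difference being 2.22 for the pair against 5.30 elsewhere, as Chrna2 did. Just outside the group lay Nt5e, an ectonucleotidase, with a difference of 3.36 and Sult4a1, a sulfotransferase, with 3.33, both with WT means below the filter; the named gene just inside it was Sdr16c5 with 3.73.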
